A study of Mus musculus with 12 samples.

Results

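In hnRNP H CLIP-seq and RNA-seq of mouse striatum, 10 genes of the machinery that cuts and polyadenylates messenger RNA were followed: Cpsf1, Cpsf2, Cpsf3, Nudt21, Cpsf6, Cpsf7, Cstf1, Cstf3, Pcf11 and Pabpn1. They were selected by symbol, as 10 of the 18208 genes in the RNA-seq table. In the CLIP data they were followed through the windows named for their Ensembl identifiers and through the positions annotated to them in the 2 peak lists. The animals were wild-type C57BL/6J mice, from postnatal day 50 to 100, bred from males heterozygous for an Hnrnph1 mutation and C57BL/6J females. All received saline on 2 days. On day 3 one group received saline again and the other methamphetamine at 2 mg/kg, both intraperitoneally, and whole striata were taken after 30 min. Each treatment had 3 pools, each from 4 mice (2 females and 2 males), so single animals cannot be compared. A piece of each pool was set aside for RNA-seq before cross-linking. The rest went through cross-linking and precipitation with an antibody to hnRNP H, after which bound RNA was taken from the 50 to 75 kDa part of a membrane. Mutant samples were not analysed here.

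A messenger RNA ends where its precursor is cut and a poly(A) tail is added. The CPSF complex recognises the polyadenylation signal and cuts the RNA, the CstF complex binds the sequence downstream of the cut, and the cleavage factors and the nuclear poly(A)-binding protein influence which of several possible sites is used. hnRNP H is a nuclear RNA-binding protein that favours runs of G and is known to act on splicing and on polyadenylation. Cross-linking shows where the protein touched RNA, and in a transcript of a polyadenylation factor such contact can fall in any exon or intron.

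Recovered RNA-seq reads summed to between 3935160 and 5091839 per library, and CLIP reads in peak windows to between 423057 (saline pool 2) and 1635338 (saline pool 3). Saline pools 1 and 3 and methamphetamine pool 2 stood apart from the other 3 libraries on the first principal component of all RNA-seq genes (41.4% of the variance), a division that runs across the treatments. Summed markers of striatal projection neurons were at 8275 to 9469 CPM (reads scaled to a common library total) in those 3 libraries and at 5995 to 6776 in the others. All 10 of these markers had reads in every library, and 7 of them were higher in each of those 3 libraries than in any other. The 6 choroid plexus markers summed to 4827 CPM in methamphetamine pool 2 and to 41.0 to 193 elsewhere, and the 6 markers of cortical excitatory neurons to 137 to 376 in those 3 libraries against 400 to 793, with 3 of the 6 lower in all 3. The sums of 5 astrocyte markers (464 to 576 against 647 to 770) and of 5 microglial markers (206 to 226 against 243 to 281) were also lower there. Of these, 3 astrocyte and 2 microglial markers were lower in all 3. Sums of 5 oligodendrocyte markers (4403 to 10631 against 5803 to 10508) overlapped. So did those of 4 erythroid and vascular markers (345 to 442 against 394 to 772). Single markers of both types still divided, as 2 oligodendrocyte and 3 erythroid and vascular markers were lower in all 3 of those libraries. In pooled tissue, fewer cells of a type and less RNA per cell cannot be told apart. In CLIP, methamphetamine pool 1 had 28.7% of its reads in exonic windows that were not wholly coding, against 16.8% to 21.4% in the other 5 libraries.

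Most of the CLIP reads of these genes came from 4 windows inside coding exons, 1 in Pcf11, 1 in Cpsf6 and 2 in Pabpn1. The sequences of these 4 windows are printed below because 69.5% of the genes' CLIP reads fell there. They were read from GENCODE M21 transcripts (GRCm38), 5′ to 3′ on the transcript's strand, with every run of 3 or more G in capitals. No 30-base stretch of them occurred in an annotated transcript of another gene.
Pcf11, chr7:92658044-92658143, minus strand: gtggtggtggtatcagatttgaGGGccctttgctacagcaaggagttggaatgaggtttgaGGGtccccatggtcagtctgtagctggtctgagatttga
Cpsf6, chr10:117361774-117361873, minus strand: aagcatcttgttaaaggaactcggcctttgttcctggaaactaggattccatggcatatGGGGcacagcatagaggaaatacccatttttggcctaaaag
Pabpn1 first window, chr14:54894201-54894300, plus strand: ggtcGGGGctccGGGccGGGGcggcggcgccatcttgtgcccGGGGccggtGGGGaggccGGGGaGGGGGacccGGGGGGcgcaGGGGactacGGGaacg
Pabpn1 second window, chr14:54894301-54894400, plus strand: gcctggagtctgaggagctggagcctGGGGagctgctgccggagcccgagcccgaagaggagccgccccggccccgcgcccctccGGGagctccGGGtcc

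The first Pabpn1 window held 10 runs of G and was 56% G. The second Pabpn1 window had 3 runs (40% G), the Pcf11 window 2 runs with no GGGG (36% G), and the Cpsf6 window a single GGGG (24% G). GGG occurred in all 4 windows and GGGG in 3 of them. For comparison, of the 2967 windows of the whole count table that lay inside a coding exon, 74.0% held GGG and 34.6% held GGGG. The median of those windows was 1 run and 29.0% G. CCC, which is GGG on the opposite strand, was in 72.1% of them. Of the 319 coding windows with 100 or more reads, which are nearer to these 4 in reads, 78.1% held GGG and 43.3% held GGGG. Their median was 2 runs and 31.0% G, and 32.0% of them had 3 or more runs. Thus the first Pabpn1 window was far richer in G than either median. The second Pabpn1 window and the Pcf11 window were above both medians in share of G, and the Cpsf6 window was below both. The Pcf11 window, which had the most reads of the 4, carried the letters tttgaGGG 2 times. That string was noticed in the printed sequence and was in 0.259% of the 25460 windows of the table inside an exon. The Pcf11 exon around the window carried it 4 times.

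**Figure D1:**
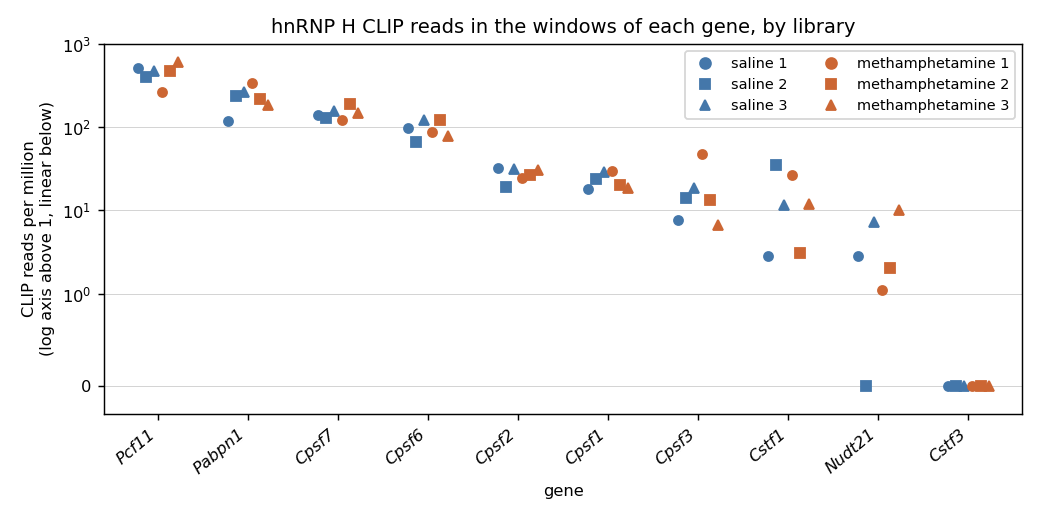
CLIP reads in CPM in the windows of each gene (y axis, logarithmic above 1) for the 10 genes (x axis), 1 point per library, colour for treatment and shape for pool. Pcf11 lies between 265 and 611 and is the highest of the 10 in 5 of 6 libraries; Cstf3 has no window and is drawn at 0.

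Counts ranged widely among the 10 genes. The count table had 75 windows for 9 of them with 5762 reads, 0.103% of all CLIP reads. No window was named for Cstf3. Of the 75 windows, 7 had 0 reads and 39 had under 10, so most members' values rest on few reads. Whether reads of 1 fragment were merged before counting is not stated, so the limit given below for a count of 0 covers counting error only.

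Pcf11, a subunit of the second cleavage factor that also binds the tail of RNA polymerase II, gave the most CLIP reads of the 10. Its only window held 537, 171 and 778 reads in saline pools 1 to 3 and 241, 463 and 364 in methamphetamine pools 1 to 3. In CPM of CLIP reads this was 510, 404 and 476 with saline and 265, 473 and 611 with methamphetamine. The treatments overlapped, and the lowest and the highest values were both from methamphetamine pools. With 2554 reads the window was 258th of 147438 positions and 10th of the 2967 coding windows. It lay inside exon 8 of 16 of the Pcf11 transcript ENSMUST00000119954.8, a coding exon of 1559 nt (chr7:92657308-92658866). The window stood near the middle of that exon, 723 nt from its start and 736 nt from its end. The exon held 21 runs of 3 or more G, and 2 of them were in the window. Relative to its RNA, Pcf11 had a mean log2 ratio of CLIP to RNA-seq of 3.91, higher than in 95.1% of 6607 genes with at least 60 reads in each assay. The lowest ratio of a library was 3.01 in methamphetamine pool 1 and the highest 4.38 in methamphetamine pool 3, and the median of all genes was -0.16.

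Cpsf6, a subunit of the first cleavage factor with Nudt21 and Cpsf7, had 24 windows, and a single one held 85.1% of its 578 reads. The reads in this window were 99, 20 and 188 with saline and 33, 113 and 39 with methamphetamine. The window fell wholly inside a coding exon of 111 nt (chr10:117361774-117361884), leaving out its first 11 nt. In GENCODE M21 this exon was in 1 of the 4 coding Cpsf6 transcripts that span it (exon 6 of 11 of ENSMUST00000176670.7) and was skipped by the other 3. It adds 37 codons, with an intron of 129 nt before it and of 413 nt after it in that transcript. The window also lies inside a longer exon of a retained-intron transcript, ENSMUST00000176567.1 (chr10:117360856-117363233). Spliced and retained-intron RNA cannot be told apart in this window. The remaining 23 windows of Cpsf6 shared 86 reads. In CPM of CLIP reads the exon window was at 94.0, 47.3 and 115 with saline and at 36.3, 115 and 65.5 with methamphetamine. Its 3 high libraries were saline pools 1 and 3 and methamphetamine pool 2, the same 3 that stood apart in RNA-seq. They were also the 3 with the most CLIP reads, at 979878 to 1635338 against 423057 to 909091. On the scale with TMM factors, which edgeR computes to adjust for differences in library makeup, these 3 ranged from 85.3 to 98.8 CPM and the other 3 from 46.8 to 68.4. In these 3 libraries the exon window took 95.2%, 93.1% and 94.96% of 104, 202 and 119 Cpsf6 CLIP reads. In the other 3 it took 71.4%, 41.8% and 84.8% of 28, 79 and 46 reads, so these shares rest on fewer reads. RNA-seq of Cpsf6 did not show such a division, with log2 CPM from 5.91 to 6.30 in the former and from 5.82 to 6.07 in the latter. Between these library sets, 6 of the 15 member windows that passed the filter on low counts did not overlap, against 26.1% of all 10358 such windows. The parts of the striatal markers and of CLIP depth, which divide in the same way, and of exon inclusion were not tested. The RNA-seq values are per gene, not per exon.

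**Figure D2:**
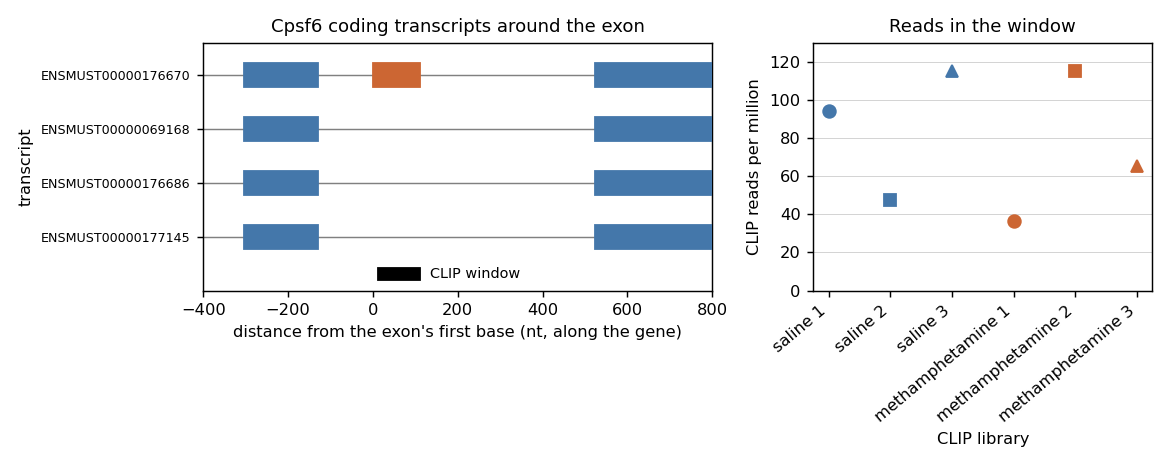
Left: the 4 coding Cpsf6 transcripts that span the 111-nt exon, with exons as boxes (orange for this exon), introns as lines and the CLIP window as a black bar; x axis, distance in nt from the exon's first base. Right: CLIP reads in CPM in that window in each of the 6 libraries, between 36.3 and 115, with saline 1, saline 3 and methamphetamine 2 above the others.

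Pabpn1, the nuclear poly(A)-binding protein that coats new tails and is known to limit the use of upstream sites, was second. Its 9 windows held 126, 100 and 429 reads with saline and 313, 213 and 109 with methamphetamine. Together the 2 coding windows printed above had 956 of these 1290 reads. Both lie in exon 1 of 7 of ENSMUST00000022808.13 (chr14:54894148-54894494), a coding exon. The annotated gene starts further upstream, at chr14:54892500. The first window was at 55.1, 92.2 and 114 CPM with saline and at 111, 90.8 and 87.3 with methamphetamine. The second was at 35.1, 111 and 87.4 with saline and at 108, 66.3 and 68.9 with methamphetamine. Saline pool 1 was the lowest library in both windows, and the treatments overlapped in both. A read-through gene, Gm20521, spans this exon on the same strand, and its annotated transcript skips it. Gm20521 has 15 windows of its own in the count table, so unspliced read-through RNA and Pabpn1 RNA cannot be told apart here. The adjacent windows also touch, so a fragment can count in both.

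Cpsf7, the partner of Nudt21 that can take the place of Cpsf6, had 148, 55 and 258 reads with saline and 111, 187 and 89 with methamphetamine in 10 windows. Its top window (chr19:10525467-10525566, 293 reads) lay in exon 1 of ENSMUST00000235674.1, was not wholly inside coding sequence, and held 8 runs of G. In CPM it was at 55.1, 40.2 and 56.9 with saline and at 37.4, 63.3 and 48.7 with methamphetamine. With TMM factors the 6 libraries lay between 45.5 and 53.2, the narrowest range of the 5 windows with the most reads. The 5 Cpsf7 windows with the most reads lay within 600 nt at its 5′ end (chr19:10525367-10525966), with a gap of 100 nt among them, and held 793 of its 848 reads. Relative to RNA, Cpsf7 was above 85.9% of genes, Pabpn1 above 68.9% and Cpsf6 above 63.5%.

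The remaining 5 genes with a window had few reads. Nudt21, the subunit that gives the first cleavage factor its RNA sequence preference, had 1 intronic window with 3, 0 and 12 reads with saline and 1, 2 and 6 with methamphetamine. The 0 in saline pool 2 allows a level of up to 7.09 CPM. Cpsf3, the endonuclease that makes the cut, had 8, 6 and 30 reads with saline and 43, 13 and 4 with methamphetamine, spread over 13 windows, 12 of them intronic. Methamphetamine pool 1 alone gave 43 of its 104 reads. Cpsf1, the large scaffold subunit of CPSF, had 19, 10 and 47 reads with saline and 27, 20 and 11 with methamphetamine. Cpsf2, a subunit related to the endonuclease, had 34, 8 and 51 reads with saline and 22, 26 and 18 with methamphetamine in 4 windows. Cstf1, a subunit of CstF, had 3, 15 and 19 reads with saline and 24, 3 and 7 with methamphetamine. Relative to RNA, Cpsf2 was above 58.6% of genes, Cstf1 above 35.1%, Cpsf1 above 26.3% and Cpsf3 above 19.5%. Nudt21, with 24 CLIP reads, and Cstf3, with no window, were under the minimum of 60 reads and have no place in this order. Among the members that have one, Cpsf3 and Cpsf1 were lowest, on 104 and 134 CLIP reads, and Pcf11 was highest.

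**Figure D3:**
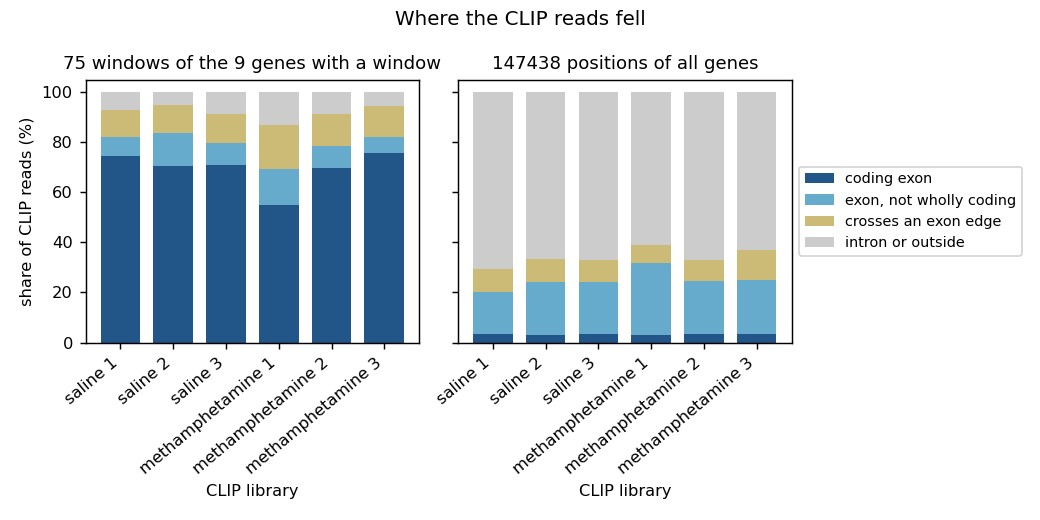
Share of CLIP reads (y axis, %) by class of window in each of the 6 CLIP libraries (x axis), for the 75 windows of the 9 genes with a window (left) and for all 147438 positions (right). Coding-exon windows take 54.9% to 75.8% on the left and 2.97% to 3.53% on the right.

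By class of window, 4 wholly coding windows held 69.5% of the members' reads, with a range of 54.9% to 75.8% over the libraries. Over all positions of the table this class held 3.34% of reads, with a range of 2.97% to 3.53%. The lowest library on the left side of that plot was methamphetamine pool 1. The 39 intronic windows of the members held 8.45% of their reads, against 66.2% for windows in introns or outside genes over all positions. Pcf11 alone gave 44.3% of the members' reads, so these shares describe a few windows rather than all 10 genes. The shares are a description without a test.

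The peak lists, 1 per treatment, gave another picture. A listed position was found for 5 of the 10 members, against 38.7% of all RNA-seq genes. These were Pabpn1, Cpsf2, Cpsf7, Cstf1 and Cpsf1, whereas Nudt21, Cpsf3, Cpsf6, Cstf3 and Pcf11 were in neither list. The Pcf11 and Cpsf6 coding windows, despite 2554 and 492 reads, were therefore not listed. This was common at such counts. Of the 258 positions with at least 2554 reads, 12.8% were in a list, and of the 10 coding ones among them a single one was. Of the 1484 positions with at least 492 reads, 20.5% were listed. The caller and its thresholds are not given in the sources used here.

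The methamphetamine list held 15 positions of the members and the saline list 18, with 13 of each overlapping the other list by at least 1 bp. That is 86.7% of the former and 72.2% of the latter, against 48.7% and 50.0% of all positions in these lists. Among positions at or above the median signal of their own list, 4 of 10 methamphetamine positions (40.0%) and 4 of 5 saline positions (80.0%) overlapped such a position of the other list, against 43.2% and 44.0% of all such positions. Pabpn1 had 9 and 10 of these positions, 4 in each list named for the read-through gene Gm20521, so that many of them overlap each other. Of its 12 distinct positions 6 were in the 3′ UTR, 3 in coding sequence, 2 in the 5′ UTR and 1 in an intron. Both printed Pabpn1 windows were in both lists, with the authors' signal values of 2 and 1.23 for methamphetamine and of 2.11 and 1.11 for saline. Cpsf2 had 2 intronic positions in both lists. The one at chr12:101999589-101999688 crosses an exon edge and was the highest methamphetamine position of the members, with a signal value of 2.66 there and 2.14 in the saline list. Another Cpsf2 position, in the saline list alone, was on the opposite strand and named for the neighbouring Ndufb1-ps. Cpsf7 had 2 positions in each list and shared 1 of them, all at introns by their midpoints. Cpsf1 had 1 intronic position in both lists. Cstf1 had a 5′ UTR position in both lists (chr2:172370682-172370781), with the highest signal value of the members' positions in the saline list, 3.26, against 1.7 in the methamphetamine list. A coding position of Cstf1 was in the saline list alone. Since each list combines the pools of a treatment, these differences have no replicate error.

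**Figure D4:**
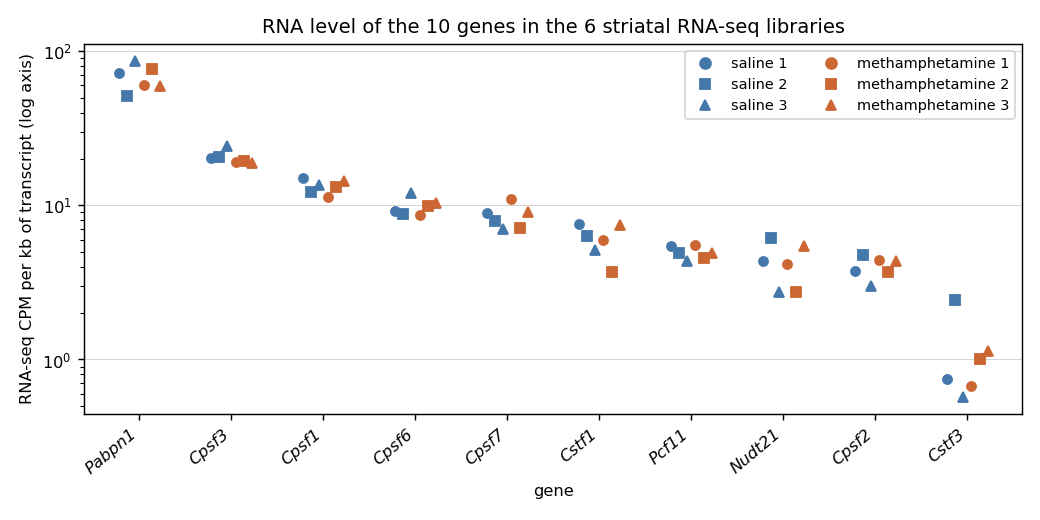
RNA-seq CPM per kb of the longest coding transcript (y axis, logarithmic) for the 10 genes (x axis, in order of their mean), 1 point per library, colour for treatment and shape for pool. Pabpn1 is above the others in all 6 libraries (51.5 to 86.7) and Cstf3 is lowest (0.572 to 2.44).

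RNA of all 10 genes was detected in all 6 RNA-seq libraries. Divided by the length of the longest coding transcript, Pabpn1 was highest at 67.8 ± 13.1 CPM per kb (SD, n = 6 libraries) and Cstf3, a CstF subunit that holds the complex together, was lowest at 1.10 ± 0.690. Between them came Cpsf3 at 20.5 ± 1.92, Cpsf1 at 13.3 ± 1.40, Cpsf6 at 9.84 ± 1.27 and Cpsf7 at 8.53 ± 1.49. Cstf1 followed at 6.01 ± 1.46, Pcf11 at 4.94 ± 0.457, Nudt21 at 4.27 ± 1.38 and Cpsf2 at 4.00 ± 0.640. In this order the libraries of Pabpn1 and Cpsf3, of Cpsf3 and Cpsf1, and of Cpsf2 and Cstf3 did not overlap. All other neighbours overlapped, and Nudt21 was above Cpsf2 in 3 of 6 libraries. Pabpn1, Cstf3, Cpsf7, Pcf11, Cpsf1, Cpsf3 and Cpsf2 overlap other annotated genes, and without a stated strand setting some of their reads may belong to those.

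In log2 CPM, Pabpn1 was at 7.00, 6.51 and 7.27 in saline pools 1 to 3 and at 6.74, 7.10 and 6.72 in methamphetamine pools 1 to 3. Its 3 highest libraries were those with the higher sums of striatal markers. Cpsf2 went the other way, at 4.43, 4.77 and 4.11 with saline and at 4.67, 4.40 and 4.63 with methamphetamine. These were the 2 members of 10 for which the library sets did not overlap, against 38.8% of all genes. The sets were taken from the same RNA-seq values, so this is a description, and the part of the markers was not tested.

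Methamphetamine and saline pools were then compared. In RNA-seq none of the 10 genes passed an adjusted p of 0.05 in limma, as none of the 18208 genes did (0%), and none had an unadjusted p under 0.05, against 1.52% of all genes (276). Cpsf3 was the member with the smallest unadjusted p. It was at 5.66, 5.69 and 5.92 log2 CPM with saline and at 5.59, 5.61 and 5.57 with methamphetamine. The 3 methamphetamine pools were all below the 3 saline pools, which was the case for no other member, whereas in 6.01% of all genes the treatments did not overlap. The fitted log2 difference of Cpsf3, methamphetamine minus saline, was -0.17 ± 0.16 (SE, limma, adjusted p = 1.00, n = 3 pools each).

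The other 9 genes overlapped between treatments in RNA-seq. Cstf1 ranged from 4.15 to 4.70 log2 CPM with saline and from 3.66 to 4.68 with methamphetamine. Nudt21 ranged from 3.78 to 4.95 and from 3.79 to 4.76. Cpsf7 was at 4.97, 4.80 and 4.62 with saline and at 5.27, 4.64 and 4.996 with methamphetamine. Cpsf1 was between 5.78 and 6.09 with saline and between 5.68 and 6.03 with methamphetamine, and Pcf11 between 4.71 and 5.02 and between 4.77 and 5.05. The fitted differences of the 10 genes lay between -0.20 (Cstf1) and 0.17 (Cpsf7), 7 of them below 0. Their median was -0.07, beside 0.00198 for all genes. The 95% intervals, from limma, bound what these pools could show. That of Cpsf3 ran from -0.52 to 0.18, that of Pcf11 from -0.38 to 0.44 and that of Cpsf6 from -0.45 to 0.35. For Nudt21, it ran from -0.86 to 0.69. For Cstf3, with 0.69 to 2.78 log2 CPM in its 6 libraries, the interval was from -1.46 to 1.17. Changes of 2-fold in either direction lie outside these intervals for all members except Cstf3.

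**Figure D5:**
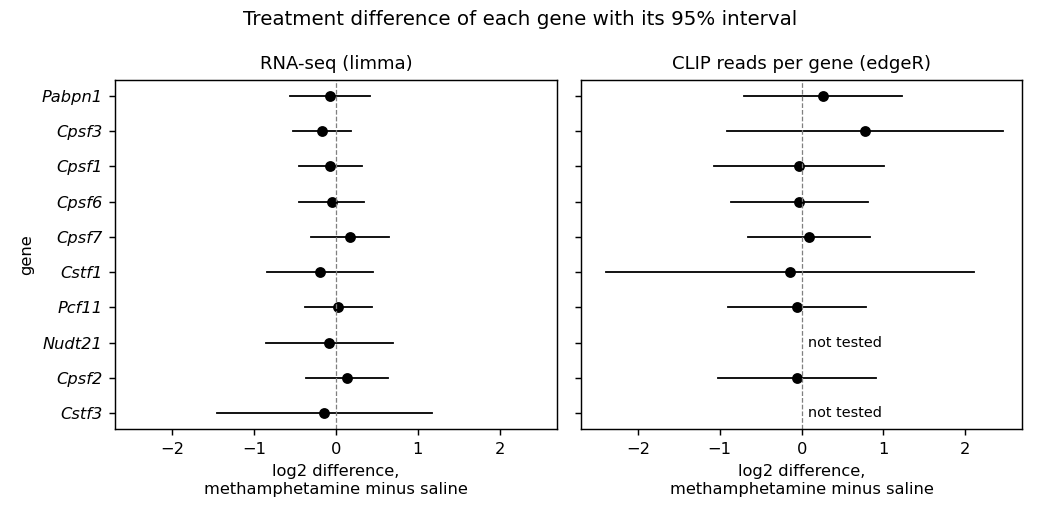
Log2 difference, methamphetamine minus saline, of each gene (points) with its 95% interval (bars), for RNA-seq from limma (left) and CLIP reads per gene from edgeR (right), 3 pools per treatment. All intervals include 0, and those of CLIP are wider; Nudt21 and Cstf3 were not tested in CLIP.

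In CLIP, 8 of the 10 genes had enough reads to be tested per gene, while Nudt21 fell below the filter on low counts and Cstf3 had no window. None passed an adjusted p of 0.05 in edgeR's quasi-likelihood test, as none of the 8185 genes tested did (0%), and none had an unadjusted p under 0.05, against 5.24% of genes (429). The treatments overlapped in all 8, whereas they did not overlap in 9.6% of genes. For Pcf11 the log2 difference was -0.06 (95% interval from -0.90 to 0.79), for Cpsf6 -0.03 (-0.87 to 0.82), for Cpsf7 0.09 (-0.66 to 0.84) and for Pabpn1 0.26 (-0.70 to 1.22). For Cpsf1 it was -0.03 (-1.07 to 1.00) and for Cpsf2 -0.05 (-1.02 to 0.91). The widest were Cpsf3 at 0.78 (-0.91 to 2.46) and Cstf1 at -0.14 (-2.39 to 2.11). Without methamphetamine pool 1, the library with 43 of the Cpsf3 reads, the Cpsf3 difference was -0.41. The library sets did not overlap in Cpsf6 and Cstf1, 2 of 8, against 25.5% of genes. The median of the 8 differences was -0.03, beside 0.04 for all genes tested.

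Per window, 15 of the 75 member windows passed the filter. None had an adjusted p under 0.05 in edgeR, as none of 10358 windows did (0%), and none an unadjusted one, against 3.56% of windows (369). The smallest unadjusted p was 0.138 (edgeR), in an intron-edge window of Pabpn1 (chr14:54894501-54894600). Its reads were 8, 1 and 24 with saline and 9, 18 and 12 with methamphetamine. On the TMM scale this gave 6.89, 2.68 and 12.6 CPM against 12.8, 15.4 and 21.05, so that the 3 methamphetamine pools were just above all 3 saline pools. Without TMM factors the treatments overlapped, at 7.60, 2.36 and 14.7 CPM against 9.90, 18.4 and 20.2. On the TMM scale it was the single member window of 15 without overlap, against 8.49% of all windows. Its log2 difference was 0.97 ± 0.59 (SE, edgeR, adjusted p = 0.996). Next came a Cpsf7 window (chr19:10525867-10525966) at 0.51 ± 0.47 and the first printed Pabpn1 window at 0.31 ± 0.44 (SE). For the Pcf11 window the difference was 0.05 (95% interval from -0.74 to 0.84), for the Cpsf6 exon window -0.17 (-1.16 to 0.82), for the second Pabpn1 window 0.21 (-1.14 to 1.57) and for the top Cpsf7 window 0.07 (-0.68 to 0.83).

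A further 20 genes of the same machinery were taken as a list: Cpsf4, Cpsf4l, Cstf2, Cstf2t, Fip1l1, Wdr33, Sympk, Clp1, Papola, Papolb, Papolg, Rbbp6, Pabpc1, Zc3h14, Zc3h3, Ssu72, Xrn2, Scaf4, Scaf8 and Pabpn1l. In RNA-seq 0 of 20 passed an adjusted p of 0.05 or an unadjusted one. Their log2 differences were above 0 in 14 and below 0 in 6, with a median of 0.07, while 50.4% of all genes were above 0. The 3 with the smallest unadjusted p were Pabpn1l at -0.87 ± 0.67, Cpsf4l at 0.81 ± 0.69 and Cstf2t at 0.17 ± 0.17 (SE, limma, n = 3 pools each). Pabpn1l and Cpsf4l were both close to the detection limit, between -1.79 and 0.45 and between -1.25 and 1.73 log2 CPM. In CLIP 16 of the 20 had windows, with 1465 reads in all, and 9 could be tested per gene, of which 6 were higher with methamphetamine. Of all genes tested, 52.4% were higher. None of the 9 passed the adjusted threshold, and 1 had an unadjusted p under 0.05 (edgeR), against 5.24% of all genes. That was Wdr33, the CPSF subunit that contacts the polyadenylation signal, with 3, 5 and 10 reads with saline and 57, 6 and 14 with methamphetamine. Its log2 difference was 2.30 ± 0.91 (SE, adjusted p = 0.883), and 1.15 without methamphetamine pool 1. Zc3h3 followed at -0.90 ± 0.53, with 25, 14 and 41 reads against 19, 15 and 4. Sympk, the scaffold that joins CPSF and CstF, was at 0.76 ± 0.49, with 16, 7 and 55 reads against 45, 28 and 20. With 1 library left out, the difference of Sympk ran from 0.46 to 1.17 and that of Zc3h3 from -1.28 to -0.65.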

How the data were processed

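The authors deposited RNA-seq values in log2 CPM, and per the file headers and names these come from voom. With an offset of 0.5 reads, 100% of them inverted to whole reads within 0.02 of a read. The deposited CLIP table holds counts of reads per window, per the file headers. Its 172271 lines reduce to 147438 distinct positions, each used once. The deposited peak lists hold a signal value, taken as a score since its scale is not given in the sources used here, and p-values and q-values of a test not named there. Per the submitters' processing notes, Trimmomatic, UMI-tools, STAR, bedtools, Subread, featureCounts, limma and edgeR were used with mm10. Their roles, the strand setting and the handling of duplicates are not given in the sources used here.

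Groups came from the sample labels, with 3 pools per treatment. RNA-seq was fitted with limma 3.58.1 (lmFit, eBayes with trend) on all 18208 genes without a filter. CLIP counts were summed per gene, or taken per position, and fitted with the quasi-likelihood test of edgeR 4.0.16 after filterByExpr and TMM. All adjustments were Benjamini-Hochberg over all features of a fit, at 0.05, two-sided. Standard errors of edgeR were taken as the log2 difference divided by the root of F. DESeq2 1.42.0, other filters, offsets and scalings, a replicate block, the library set as a covariate, and each library left out were alternatives. Windows were classed with GENCODE M21, a window being "coding" when wholly inside coding sequence. Listed positions took their region from the lists at the midpoint, UTRs before coding sequence and that before introns. Sequences could be read for windows inside 1 exon. The steps were also run on simulated counts with a fixed dispersion and no division into library sets. That run checks the code and does not show how the fits perform on these pools. All 10 members were named, with the 3 further pathway genes of smallest unadjusted p in each fit, the 5 member windows with most reads and the 3 with smallest unadjusted p. Wholly coding windows, the tttgaGGG string and read-count thresholds for listing were added after values had been seen. The members and lists were chosen with earlier results of these data known.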

Additional observations from a re-analysis of the deposited data

How the results depend on the processing

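Under every alternative run, 0 of the 10 members and 0 of the 20 further pathway genes passed an adjusted p of 0.05 in either gene-level fit, with limma, edgeR or DESeq2. The lowest adjusted p of any named gene or window over these alternatives was 0.487. Counts past the adjusted threshold over all features also stayed at 0, except that without a filter on low counts 414 windows passed. None of the 414 was a member's, and 111 of them were among the windows that had passed the filter. Of the 414, 390 were lower with methamphetamine, and 152 had over 90% of their reads in 1 library. That setting moved the median log2 difference of all windows from -0.04 to 0.21, while all 7 member windows named here moved lower. Unadjusted counts moved more. In RNA-seq they were 144 with the replicate block, 541 with the library set as a covariate, 113 with the filter on mean log2 CPM, 109 with edgeR on recovered reads and 192 to 958 with 1 library left out, beside 276. For CLIP genes they were 182 with the replicate block, 993 without a filter and 215 to 910 with 1 library left out, beside 429. For CLIP windows they were 109, 6792 and 271 to 1092, beside 369. Same-numbered pools did not deviate together (correlations from -0.54 to -0.04 over all 3 fits), and no pool correlated best with its own number, so the numbers give no evidence of pairs. The share of listed methamphetamine positions found in the other list was 40.0% among peaks at or above the median signal of each list (4 of 10), beside 86.7% of all 15. The overlap minimum of 50 bp left both lists' shares as they were.

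Of 31 log2 differences, 21 changed sign under at least 1 alternative and 10 under none, and the causes were not tested. The 10 were Cpsf3, Cpsf7, Pabpn1l, Cpsf4l and Cstf2t in RNA-seq, Wdr33, Zc3h3 and Sympk in CLIP per gene, and the Pabpn1 intron-edge window and the Cpsf7 window with the next smallest p. Apart from Cpsf3 and Cpsf7 in RNA-seq, these were named for a small unadjusted p in the same fits. That choice favours a kept sign, so their kept signs are no separate sign of stability. Pabpn1l and Cpsf4l were also absent from the fits with the filter on mean log2 CPM and with edgeR on recovered reads. With the library set as a covariate the sign turned for Cpsf6 (0.00093), Pcf11 (-0.0062) and Pabpn1 (0.090) in RNA-seq, for Cpsf2 (0.027) and Cpsf6 (0.16) in CLIP per gene, and for the Pcf11 (-0.019), Cpsf6 (0.086) and second Pabpn1 (-0.099) windows. Quantile normalization turned Pcf11 in RNA-seq (-0.027), and the replicate block turned its window (-0.0011). Without a filter the windows of Pcf11 (-0.26), Pabpn1 (-0.073 and -0.13) and Cpsf7 (-0.25) turned. Leaving out methamphetamine pools 1, 2 and 3 turned 10, 4 and 3 of the 31, and leaving out saline pools 1, 2 and 3 turned 4, 3 and 7. With 1 library left out, RNA-seq differences ran from -0.39 to 0.20 for Nudt21, -0.15 to 0.025 for Cpsf1, -0.032 to 0.30 for Cpsf2, -0.14 to 0.089 for Cpsf6, -0.42 to 0.090 for Cstf1, -0.56 to 0.49 for Cstf3, -0.052 to 0.10 for Pcf11 and -0.28 to 0.094 for Pabpn1. Of those that kept their sign, Cpsf3 ran from -0.22 to -0.087, Cpsf7 from 0.024 to 0.33, Cpsf4l from 0.23 to 1.27, Pabpn1l from -1.29 to -0.44 and Cstf2t from 0.039 to 0.24. CLIP differences per gene ran from -0.30 to 0.084 for Cpsf1, -0.24 to 0.023 for Cpsf2, -0.41 to 1.10 for Cpsf3, -0.31 to 0.13 for Cpsf6, -0.14 to 0.22 for Cpsf7, -1.14 to 0.87 for Cstf1, -0.40 to 0.20 for Pcf11 and -0.085 to 0.41 for Pabpn1. Per window they ran from -0.22 to 0.26 for Pcf11, -0.51 to 0.087 for Cpsf6 and -0.23 to 0.77 for the second Pabpn1 window, 0.030 to 0.53 for the first, 0.019 to 0.15 for the top Cpsf7 window, 0.33 to 0.84 for the other Cpsf7 window and 0.75 to 1.62 for the Pabpn1 intron-edge window. CLIP depth limits the members with few reads: 39 of 75 windows had under 10 reads.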
